A study of Mus musculus with 6 samples.

Results

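The adult fast-twitch contractile isoforms examined here are 10 genes chosen by symbol, by a rule that uses no measured value though earlier results of these data were known, from the deposited gene table of a mouse muscle injury study. All 10 were listed among the 14016 rows of that table. They comprise the myosin heavy chains Myh1, Myh2 and Myh4, the myosin light chains Myl1 and Mylpf, the troponin subunits Tnnt3, Tnni2 and Tnnc2, the Z-disc protein Actn3 and the thick filament protein Mybpc2. The study asked how eosinophils respond to muscle trauma and to implanted extracellular matrix. RNA was sequenced from muscle at day 7 after volumetric muscle loss without an implant, in 3 WT mice of the B6 background and 3 GATA-1 mutant mice. The mutant, ΔdblGATA in the study, carries a germline deletion in a promoter of Gata1 and lacks eosinophils in all tissues and not only in muscle, and both genotypes carried the injury, so there was no uninjured group. The methods give female mice of 10 to 12 weeks for the WT surgery.

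The only measurement used is the authors' mean log2 CPM of each gene, a single value over the samples of their fit, with both genotypes together. CPM is the number of reads of a gene scaled to a common library size, and a step of 1 on the log2 scale is a doubling. Values per mouse were not analysed here, and the authors' genotype comparison was not used, so no value below has an SD or a test, the depth per sample is unknown, and no difference between WT and GATA-1 mutant muscle is given. A mean over log2 values is a geometric mean of CPM. In bulk tissue, fewer muscle fibres and less of a transcript per fibre cannot be told apart.

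Vertebrate muscle fibres contract at speeds set largely by which isoforms of the sarcomeric proteins they make. Fast fibres use their own heavy and light chains of myosin, the motor, and their own troponin, the calcium switch on the thin filament, while slow fibres use products of separate genes for the same positions. The mouse quadriceps is known as a mainly fast muscle, and adult fast fibres are typed as IIA, IIX or IIB by the heavy chain they hold, encoded by Myh2, Myh1 and Myh4.

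The tissue label was checked against marker genes. All 5 skeletal muscle markers (Acta1, Ckm, Des, Ttn and Mb) were listed, between 10.70 and 14.30 log2 CPM. Fibroblast markers (4 of 4 listed) ran from 5.73 to 11.75 log2 CPM, with the collagens Col1a1 and Col3a1 at the top, and leukocyte markers (4 of 5 listed, Adgre1 not) from 4.40 to 9.12. Endothelial (3 of 3), smooth muscle (3 of 3) and adipocyte (3 of 3) markers lay at 5.64 to 6.53, 4.07 to 7.18 and 0.87 to 9.14. Of the 5 eosinophil markers Siglecf, Epx, Prg2, Ccr3 and Il5ra, 0 were listed. The methods state a filter of more than 1 CPM in at least 3 samples, but 1198 genes were listed with a mean below 1 CPM, down to -4.08 log2 CPM, and without values per mouse it could not be checked that the listed rows passed it, so nothing is read from the absence of a gene. How far the share of non-muscle cells moves the levels of the fast isoforms was not tested.

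Among the fast isoforms, the heavy chains are the hardest to tell from one another by sequence, and short stretches of their coding sequence show how far reads can separate them. Across the 5820 aligned positions at which all 3 fast heavy chains have a base, 85.3% held the same base in Myh4, Myh1 and Myh2. The longest stretch without a difference was 140 bases, at positions 1549 to 1688 of the coding sequence in all 3 genes, counted from the A of the start codon. Taken alone, a read that falls wholly inside it could come from any of the genes, though the other read of its pair may fall where they differ. It is shown once, as all 3 transcripts hold it.
Myh4, Myh1 and Myh2, identical stretch: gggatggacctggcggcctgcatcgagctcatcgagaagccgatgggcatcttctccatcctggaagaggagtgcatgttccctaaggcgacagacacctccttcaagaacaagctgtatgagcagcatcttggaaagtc

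The opposite case is the gap-free window of 60 bases with the most differences, chosen by that rule from windows in frame. It lies at coding positions 3832 to 3891 of Myh4 and 3841 to 3900 of Myh1 and Myh2, and 24 of its 60 positions differ between at least a pair of the genes. Those positions are in capitals.
Myh4: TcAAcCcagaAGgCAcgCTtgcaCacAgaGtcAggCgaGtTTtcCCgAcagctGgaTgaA
Myh1: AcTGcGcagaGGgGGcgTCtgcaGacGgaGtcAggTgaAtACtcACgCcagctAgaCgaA
Myh2: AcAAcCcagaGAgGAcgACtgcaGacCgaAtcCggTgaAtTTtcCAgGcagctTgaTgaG
Reads from this window carry the gene's identity. The split of reads between the 3 heavy chains rests on all stretches where they differ, of which this window is the extreme case.

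Every fast isoform stood near the top of the table. Their levels ran from 10.56 to 14.65 log2 CPM, against a median of 4.03 over all genes, and all 10 were among the 50 most abundant genes by CPM, 6 of them among the first 20. The lowest of them, Myh2, was above 99.6% of the 14015 genes with a symbol. Together they took 9.36% of the summed CPM of the table, a share of reads that favours long transcripts. Per kilobase of the longest coding transcript, the scale on which levels of different genes are compared below, they made up 11.7% of the summed level, and their median was 12.42 log2 CPM per kb against 2.28 for all genes with a known length. On that scale 9 of the 10 were among the 60 highest genes, and Myh2 ranked 211.

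**Figure D1:**
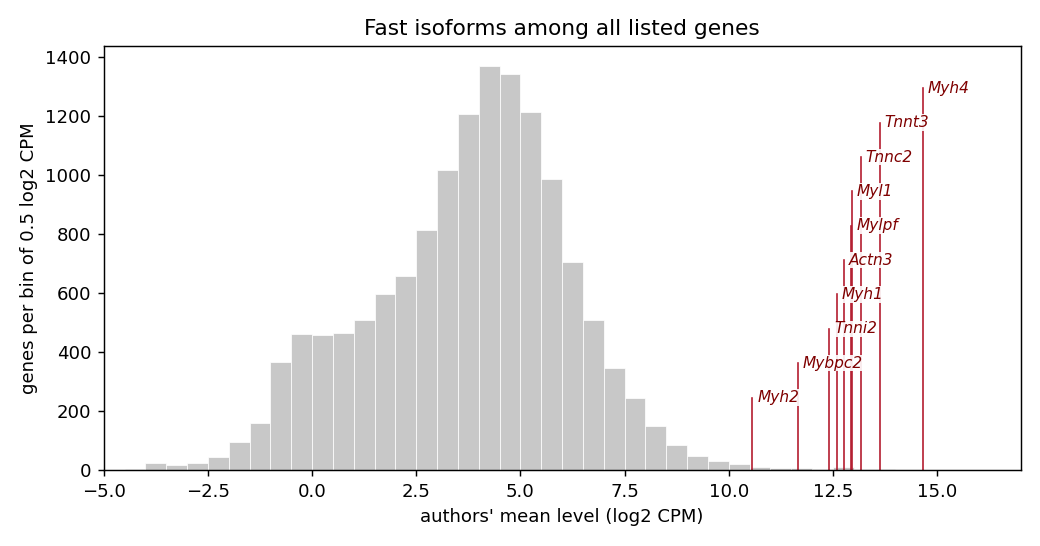
Histogram of the authors' mean level of all listed genes (x axis, log2 CPM; y axis, genes per bin of 0.5), with a red line for each fast isoform whose height only separates the names. The isoforms lie between 10.56 (Myh2) and 14.65 (Myh4), to the right of nearly all genes, whose median is 4.03.

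Myh4, which encodes the heavy chain of type IIB fibres, was the second most abundant transcript of the table by reads, at 14.65 log2 CPM, and Myh1, the type IIX chain, stood at 12.59 and Myh2, the type IIA chain, at 10.56. Only the mitochondrial gene mt-Co1 was above Myh4. Per length, Myh4 was listed at 12.06 log2 CPM per kb, Myh1 at 9.98 and Myh2 at 7.96. The steps between them were nearly equal, with Myh4 4.23-fold above Myh1 and Myh1 4.07-fold above Myh2, so that Myh4 was 17.2-fold above Myh2.
Of the summed level per length of 8 sarcomeric heavy chains, Myh4 held 75.2%, Myh1 17.8% and Myh2 4.37%, which is 97.3% for the adult fast forms. Myh7, the heavy chain of slow fibres, held 0.533%. The developmental chains Myh8 (perinatal) and Myh3 (embryonic), which regenerating fibres are known to make again, held 1.35% and 0.794%, each more than Myh7 except with the median coding transcript as length, which put Myh7 at 7.35%. Myh13, the chain of extraocular muscle, and Myh6, the main heavy chain of the adult mouse heart, were listed far lower, at 1.11 and -3.46 log2 CPM.

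**Figure D2:**
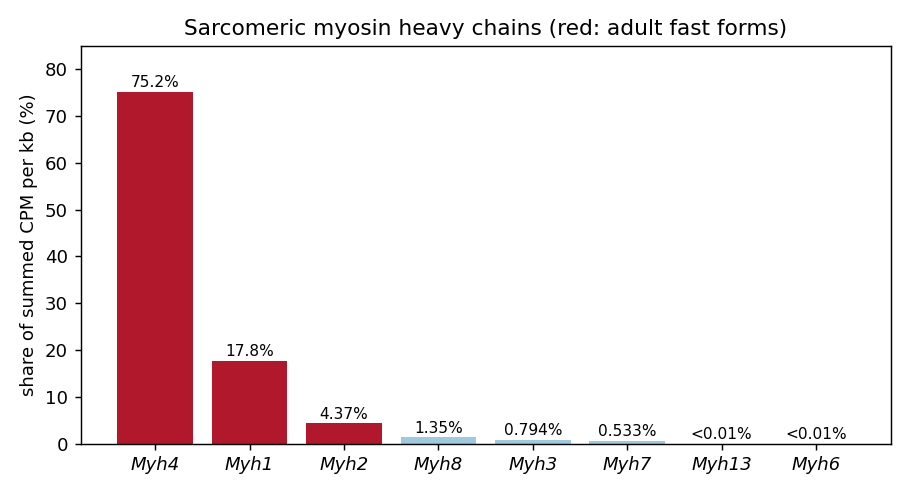
Share of each sarcomeric myosin heavy chain in the summed level per length of 8 heavy chains (y axis, percent of summed CPM per kb), red for the adult fast forms and blue for the others. The bars fall from 75.2% for Myh4 through 17.8% for Myh1 and 4.37% for Myh2 to 0.533% for Myh7. Myh13, at 0.00625%, and Myh6 are lower still.

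The adult fast heavy chain genes lie side by side on the plus strand of chromosome 11. In the GENCODE M21 annotation of GRCm38, Myh2 spans 67171027 to 67197517, Myh1 67200052 to 67224575 and Myh4 67238029 to 67260446. No other protein-coding gene lies between them, with 2534 bases from Myh2 to Myh1 and 13453 from Myh1 to Myh4. Myh3 comes before Myh2 and Myh8 follows Myh4, 16677 bases further on. The level thus increased along the cluster from Myh2 to Myh4, and was lower again at Myh8, at 6.26 log2 CPM per kb.
Their coding sequences were 90.9% identical between Myh1 and Myh2, 90.2% between Myh4 and Myh1 and 88.2% between Myh4 and Myh2, against 77.2 to 77.8% between any of them and Myh7. Cut into 31-base words, the length kallisto uses by default, 44.9% of the Myh1 transcript, 40.5% of Myh2 and 30.4% of Myh4 also occurred in other genes. Myh1 shared 28.1% of its words with Myh2 and 19.2% with Myh4, and Myh4 shared 19.4% of its words with Myh1 and 17.2% with Myh2. Reads from shared words are divided by the pseudoaligner according to its estimate, so the levels of Myh4, Myh1 and Myh2 depend on that division and carry an uncertainty. The share of words does not give the size of this uncertainty. Its size, and whether the high level of Myh4 adds to it for Myh1 and Myh2, was not tested. Myh1 also overlaps the antisense gene Myhas, and Myh2 the antisense gene 9430073C21Rik, neither of which was listed. Whether the counting used strand is not given in the sources used here.

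**Figure D3:**
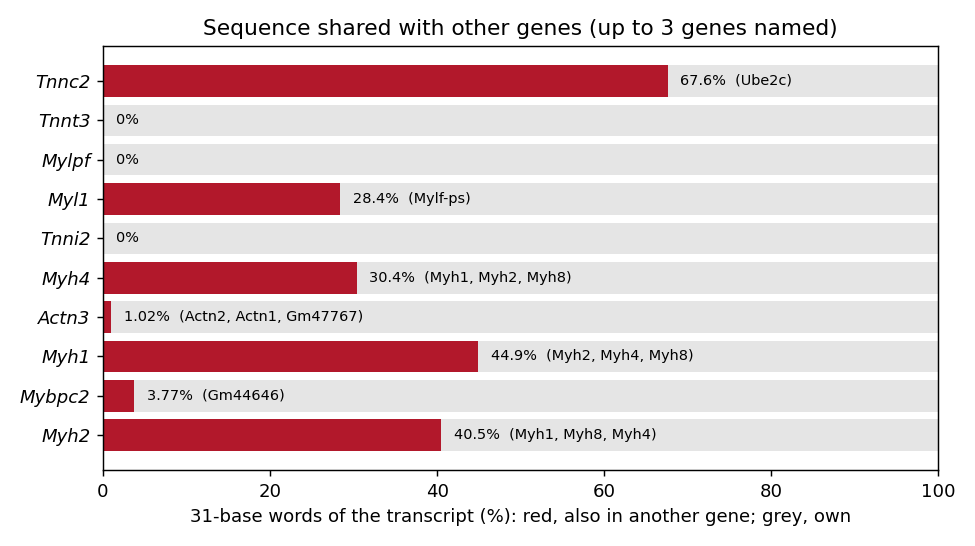
Percent of the 31-base words of each fast isoform's longest coding transcript that also occur in transcripts of another gene, on either strand (red), and that are its own (grey), with up to 3 of the sharing genes named. Tnnc2 (67.6%) and the heavy chains (30.4 to 44.9%) share most, and Tnnt3, Mylpf and Tnni2 share none.

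The start regions of the 3 heavy chain genes are shown in the order of their levels, from 250 bases before to 50 bases after the RefSeq start in GRCm38.p6, all on the plus strand. RefSeq and GENCODE starts can differ, and the Myh4 window ends before 67238029, where GENCODE begins the gene. Distances from the start and the contents of a window depend on the start used. Capitals mark matches on either strand to TATAAA, the E-box CANNTG, the MEF2 site and the CArG box (the site of serum response factor). TATAAA is a motif of core promoters, and E-boxes and MEF2 sites are known to be bound by factors of the muscle lineage.
Myh4 promoter, chr11:67237562-67237861: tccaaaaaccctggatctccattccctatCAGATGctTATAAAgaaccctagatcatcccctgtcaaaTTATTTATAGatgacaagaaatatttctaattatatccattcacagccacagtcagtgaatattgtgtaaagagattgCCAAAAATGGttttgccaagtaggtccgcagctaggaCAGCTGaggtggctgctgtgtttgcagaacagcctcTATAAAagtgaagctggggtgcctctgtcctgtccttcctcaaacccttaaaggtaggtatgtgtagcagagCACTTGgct
Myh1 promoter, chr11:67199852-67200151: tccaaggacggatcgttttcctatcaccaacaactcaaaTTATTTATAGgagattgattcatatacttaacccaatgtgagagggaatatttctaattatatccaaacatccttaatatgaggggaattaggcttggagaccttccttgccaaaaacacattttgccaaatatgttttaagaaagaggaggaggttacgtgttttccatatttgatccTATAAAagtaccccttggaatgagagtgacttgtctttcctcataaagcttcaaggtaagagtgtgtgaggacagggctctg
Myh2 promoter, chr11:67170777-67171076: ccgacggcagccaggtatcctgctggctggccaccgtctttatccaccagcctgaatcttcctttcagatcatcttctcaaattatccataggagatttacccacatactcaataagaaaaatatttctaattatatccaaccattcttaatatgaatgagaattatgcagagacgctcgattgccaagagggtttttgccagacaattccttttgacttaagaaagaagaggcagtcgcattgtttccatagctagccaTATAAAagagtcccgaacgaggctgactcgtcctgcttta

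All 3 windows held TATAAA. Myh4 had 3 matches, beginning 213, 179 and 31 bases upstream of the start, and Myh1 had 2, at 208 and 32 bases upstream. Myh2 had 1, beginning 10 bases downstream of the annotated start. Myh4 and Myh1 each held a MEF2 match, 182 and 211 bases upstream, which overlaps a TATAAA match on the opposite strand, and the Myh2 window held none. The Myh4 window alone among the 3 held E-boxes (3) and a CArG box (1).
Entries were found for 7 of the 10 fast isoforms, namely the heavy chains, Myl1, Mylpf, Tnnc2 and Mybpc2. TATAAA was in 4 of the 7 windows, against 13.6% of all 32851 promoter windows and 2 of 11 windows of the slow partners. A MEF2 match was in 2 of 7, against 3.19% and 0 of 11. The CArG box was in 1 of 7, against 1.63% and 1 of 11. The E-box was in 5 of 7, in 72.3% of all windows and in 11 of 11 for the slow partners, so its presence marks little. The windows are not separate cases. Both MEF2 matches, with the same letters, and all TATAAA windows but that of Myl1 belong to the heavy chain cluster. These are letters in a window of fixed length, compared as a description.

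The 2 fast light chains, which brace the lever arm of the myosin head, were listed close together. Myl1, the essential (alkali) light chain (chromosome 1, 66924295 to 66945404), was at 12.94 log2 CPM by reads and 12.83 log2 CPM per kb, and Mylpf, the regulatory light chain that can be phosphorylated (chromosome 7, 127208890 to 127214298), at 12.94 and 13.32. The gap between them was 0.49 on the log2 scale per kb, a ratio of 1.41. Each heavy chain is known to bind a light chain of each kind. The fast heavy chains summed to 12.43 log2 CPM per kb, and Myl1 was 1.32-fold and Mylpf 1.85-fold above that sum. These ratios and the gap between the light chains depend on the length chosen. With coding length, Myl1 stood at 13.76, Mylpf at 13.91 and Myh4, the highest heavy chain, at 12.11 log2 CPM per kb.
Mylpf shared no 31-base word with another gene, while 28.4% of the words of Myl1 also occurred in its pseudogene Mylf-ps.

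The fast troponin subunits were among the 5 highest fast isoforms per length, with both light chains. Tnnc2, the calcium-binding subunit (chromosome 2, 164777161 to 164779967), stood at 13.68 log2 CPM per kb, Tnnt3, which anchors the complex to tropomyosin (chromosome 7, 142498836 to 142516009), at 13.51, and Tnni2, the inhibitory subunit (chromosome 7, 142441808 to 142444410), at 12.78. The subunits form a complex of equal parts in the fibre, and their transcripts spanned a 1.86-fold range. Tnni2 and Tnnt3 lie 54425 bases apart on the same strand with 1 protein-coding gene between them.
The value of Tnnc2 depends on how reads of shared words were divided. Its gene overlaps Ube2c, a ubiquitin-conjugating enzyme of dividing cells on the opposite strand. Of its 31-base words, 67.6% also occur in transcripts of Ube2c. Ube2c itself was listed at 3.42 log2 CPM against 13.17 for Tnnc2, so few reads were credited to it beside those of Tnnc2. How far the division moves the value of Tnnc2 was not tested. Tnnt3 has 23 coding transcripts in the annotation, more than any other of the 10 genes, and the table gives 1 value for all of them.

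Actn3, the fast-fibre alpha-actinin that cross-links thin filaments at the Z-disc (chromosome 19, 4861216 to 4877909), was listed at 12.77 log2 CPM and 11.24 log2 CPM per kb. Mybpc2, the fast myosin-binding protein C of the thick filament (chromosome 7, 44501699 to 44524656), was at 11.66 and 9.80. Both were below the light chains and the troponins per length, Actn3 by 1.55 on the log2 scale from the nearest of them, Tnni2. Little of their sequence is shared, 1.02% of the words of Actn3 and 3.77% of those of Mybpc2, the latter with an antisense transcript.

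In order of level per length, the isoforms were Tnnc2, Tnnt3, Mylpf, Myl1, Tnni2, Myh4, Actn3, Myh1, Mybpc2 and Myh2, over a 52.9-fold range. Neighbours were 0.05 (Myl1 and Tnni2) to 1.85 (Mybpc2 and Myh2) apart on the log2 scale. As no spread between mice is at hand, it cannot be said which neighbours differ beyond it. The choice of length gives one measure of the uncertainty. With coding length the positions of Tnnt3 and Mylpf were exchanged, and with the median length of the coding transcripts Mylpf came first and Mybpc2, at 10.63 log2 CPM per kb, stood above Myh1. The places of Myl1, Tnni2, Myh4, Actn3 and Myh2 were the same with all 3 lengths.

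**Figure D4:**
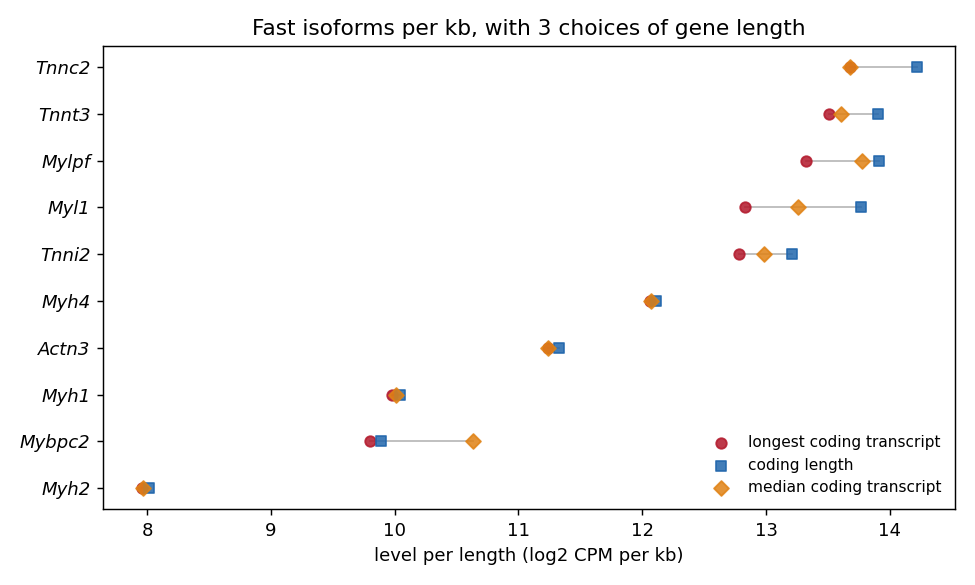
Level per length of each fast isoform (x axis, log2 CPM per kb) with the longest coding transcript (red circle), the coding length (blue square) and the median coding transcript (orange diamond) as gene length. The isoforms run from 7.96 for Myh2 to 13.68 for Tnnc2 with the longest transcript, and Mybpc2 moves most between choices among the lowest 5.

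Each fast isoform was higher than its slow partner per length, in 10 of 10 pairs, by a median of 5.89 on the log2 scale, a 59.3-fold ratio. The pairs are not separate cases, as Myh4, Myh1 and Myh2 are all set against Myh7. Myh2 over Myh7 turned to -0.87 with the median coding transcript as length, and the other pairs stayed above 0 with every length. The 8 slow partners together took 0.335% of the summed CPM. The widest pairs were Mylpf over Myl2, the slow regulatory light chain, at 7.18 (145-fold), and Myh4 over Myh7, at 7.14 (141-fold). Myh1 was 5.06 above Myh7 and Myh2 3.04.
Among the other subunits, Tnnc2 was 6.62 above Tnnc1, Myl1 6.40 above Myl3, Tnnt3 6.14 above Tnnt1 and Tnni2 5.64 above Tnni1. The 3 slow troponin subunits thus stood 49.9 to 98.7-fold below their fast forms and lay within 1.24-fold of each other, at 7.06 to 7.37 log2 CPM per kb.
The narrow pairs were Actn3 over Actn2, at 3.03 (8.18-fold), and Mybpc2 over Mybpc1, at 1.28 (2.43-fold). Actn2, an alpha-actinin known to be made in all fibre types and in the heart, stood at 8.20 log2 CPM per kb, and Mybpc1, named the slow form but also known in fast fibres, at 8.52. They were the highest of the slow partners, and only Myh2 among the fast isoforms was below them.
The coding sequences of these pairs were 59.5% (Mybpc2 and Mybpc1) to 77.8% (Myh2 and Myh7) identical, so that fast and slow partners shared few words. Of the words of Actn2, 2.06% were shared with any gene, and of those of Tnnt1, Tnni1, Tnnc1 and Myl3 none. Myh7 shared 38.6% of its words, mostly with Myh6.

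**Figure D5:**
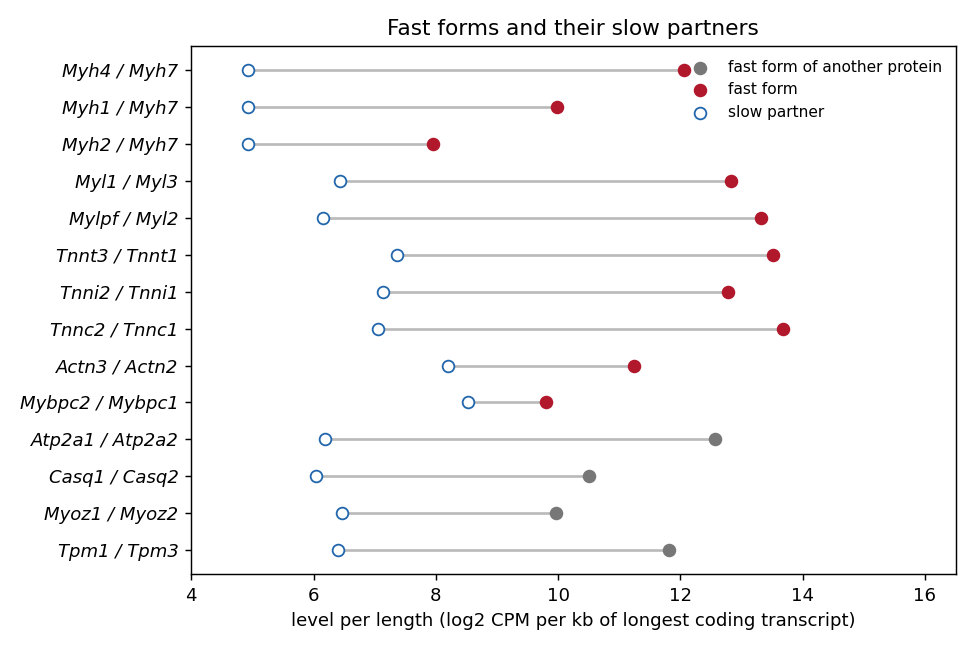
Level per length (x axis, log2 CPM per kb of the longest coding transcript) of fast forms (filled, red for the 10 fast isoforms examined and grey for fast forms of other proteins) and their slow partners (open blue), joined by a line per pair. Fast forms lie to the right in every pair, by 1.28 for Mybpc2 and Mybpc1 to 7.18 for Mylpf and Myl2.

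Of 8 fast-fibre genes outside the contractile set, all were listed, between 8.84 and 14.36 log2 CPM by reads. Myoz1 at 10.34 and Mylk2 at 8.84 were below the lowest fast isoform on that scale. Per length, however, Myoz1 stood at 9.97 log2 CPM per kb, above Mybpc2 at 9.80 and Myh2 at 7.96. Atp2a1, the fast calcium pump that returns calcium to the sarcoplasmic reticulum, was 6.37 above its slow and cardiac form Atp2a2 per length, and Casq1, the fast calcium store protein, 4.46 above Casq2. The Z-disc protein gene Myoz1 was 3.51 above Myoz2, and Tpm1, the alpha-tropomyosin of fast fibres and heart, 5.41 above Tpm3. The parvalbumin gene Pvalb, a calcium buffer of fast fibres, was listed at 12.75 log2 CPM per kb, beside Tnni2 at 12.78. Mylk2, the kinase that phosphorylates Mylpf, was at 7.28 on the same scale.
Of 9 developmental and other sarcomeric genes, 8 were listed and Mybpc3, the cardiac myosin-binding protein C, was not. The embryonic light chain Myl4 stood at 7.34 log2 CPM per kb, the cardiac and embryonic troponin T gene Tnnt2 at 6.29 and Mybph, a relative of the myosin-binding proteins C, at 7.68. Each was below every fast isoform, but with coding length Mybph at 8.36 and Myl4 at 8.04 were above Myh2 at 8.02.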

How the data were processed

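Muscle RNA of 6 mice (3 WT, 3 GATA-1 mutant), selected for poly(A) and sequenced in pairs, was assigned by the authors to transcripts with kallisto and summed to genes. CPM came from edgeR in the hands of the authors, who state a filter of more than 1 CPM in 3 or more samples (1198 listed genes have a mean below 1 CPM), took logs, normalised by TMM and fitted the genotypes with limma. The submitters' processing notes name GRCm39 (mm39), and the index is not given in the sources used here. The deposited log2 values used are the authors' mean log2 CPM per gene. The other columns hold the authors' genotype comparison (fold change, moderated t, p-values, log odds) and were not used, so the planned limma fit could not be run. The depth per sample is unknown.

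Of the gene symbols, 13458 are in GENCODE M21 (GRCm38) as written and 485 under an older name, which gave a length for 13943 of 14016 rows. A row with no symbol (1) was left out. Level per kb is the mean log2 CPM minus log2 of the length in kb of the longest coding transcript (the longest transcript where none codes). Coding length, the median coding transcript and no length were the alternatives. Summed levels add back-transformed means. Words of 31 bases were compared on both strands with all transcripts of other genes, and coding sequences were aligned globally (Biopython 1.88). Both steps were tested on simulated sequences. Promoter windows are RefSeq's, and their starts can differ from those of GENCODE. The Mylpf window, from 127211358, begins inside the GENCODE gene. The genes named are the 10 isoforms, their 8 slow partners, lists of developmental and other fast-fibre genes and cell type markers. Outside them, mt-Co1 and genes that overlap or share words were named after their values were seen. Members and lists were chosen with earlier results of these data known.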

Additional observations from a re-analysis of the deposited data

How the results depend on the processing

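No paired analysis was possible because the values used are 1 mean per gene over all mice. For the same reason the genotype test, the replicate block, leaving out each mouse, other pseudocounts and no filter on low values were not run, and nothing here measures the spread between mice. Of the 45 pairs among the 10 fast isoforms, 44 kept their order with coding length, 42 with the median coding transcript and 36 without length. The median of the fast minus slow differences was 5.57 with coding length, 4.23 with the median coding transcript and 5.61 without length, against 5.89. Of 30 differences of single pairs under these 3 alternatives, 29 were above 0. The exception was Myh2 over Myh7 with the median coding transcript, at -0.87, where the median of the 6 coding transcripts of Myh7 is 414 nt, against 6230 nt for the longest. That length also moved Myh4 over Myh7 to 3.24, Myh1 over Myh7 to 1.17 and the share of Myh7 among heavy chains to 7.35%. Among protein-coding genes only, the lowest isoform stood above 99.6% of genes, as it did among all genes.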

Other observations

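A pair of enzymes of fast glycolytic fibres stood beside the contractile genes. Eno3, the muscle enolase, was listed at 12.02 log2 CPM by reads and Pygm, the muscle glycogen phosphorylase, at 12.15, between Mybpc2 at 11.66 and Tnni2 at 12.40. Both are values without a spread between mice.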
